A study of Mus musculus with 24 samples.

Results

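The mRNAs described here encode 9 proteins of cellular iron handling: Fth1 and Ftl1, the heavy and light chains of ferritin, Tfrc, the transferrin receptor, Slc40a1, the iron exporter ferroportin, Slc11a2, the iron importer DMT1, Aco1 and Ireb2, the iron regulatory proteins IRP1 and IRP2, Ncoa4, the receptor that carries ferritin to the lysosome, and Fbxl5, the ubiquitin ligase subunit that targets iron regulatory proteins for degradation. They were found in the deposited table by gene symbol and are 9 of its 19895 entries. All 9 had a count in each of the 24 libraries and so passed the filter that left 11438 genes for testing. The organoids were cultures of mouse pancreatic duct cells: N organoids came from C57Bl/6J mice, and KP organoids from tumours of engineered mice that carry Pdx1-Cre and mutant p53 (R172H). Both were grown without EGF and N-acetylcysteine for the experiment, were exposed for 1 h to vehicle (DMSO) or to CR-31 at 10 nM and were given cycloheximide at the end, with 3 replicates in each of the 4 groups. CR-31 is a synthetic rocaglate, a compound that clamps the RNA helicase eIF4A onto mRNA and thereby blocks initiation of translation. From all 12 lysates, total mRNA and polysome-associated mRNA were sequenced as separate libraries, the latter being the mRNA bound by 3 or more ribosomes in a sucrose gradient, so that the libraries form 8 groups.

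Cells match iron storage and iron uptake to supply largely at the level of mRNA. When iron is scarce, iron regulatory proteins bind a short hairpin, the iron-responsive element (IRE). An IRE in the 5′ UTR then keeps ribosomes from the ferritin and ferroportin mRNAs, while IREs in the 3′ UTR protect the transferrin receptor mRNA from decay. When iron is plentiful, Aco1 protein takes up an iron-sulfur cluster and becomes an aconitase, Ireb2 protein is degraded through Fbxl5, and ferritin is made.

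These hairpins were located in the GENCODE M21 transcripts on the mouse build GRCm38 and are printed because the comparison of polysome-associated with total mRNA turns on the mRNAs that carry them. The pattern searched, on the transcript strand, was an unpaired C, 5 bases of upper stem, the loop CAGTGN with any base but G at its end, the 5 bases that pair with the upper stem, and at least 4 pairs among the 6 bases of lower stem on each side, with G:U pairs allowed. Each sequence reads 5′ to 3′ with the 6 loop bases in capitals. The first 3 lie in 5′ UTRs, of Fth1 on the plus strand at chr19:9982732-9982760, of Ftl1 on the minus strand at chr7:45459779-45459807 and of Slc40a1 on the minus strand at chr1:45925465-45925493. The other 4 follow one another in the 3′ UTR of Tfrc on the plus strand, at chr16:32631219-32631247, chr16:32631598-32631626, chr16:32631663-32631691 and chr16:32631710-32631738.
Fth1: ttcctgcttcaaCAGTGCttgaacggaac
Ftl1: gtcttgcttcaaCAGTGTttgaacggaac
Slc40a1: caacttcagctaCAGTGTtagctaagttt
Tfrc site 1: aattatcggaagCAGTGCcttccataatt
Tfrc site 2: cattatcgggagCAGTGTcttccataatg
Tfrc site 3: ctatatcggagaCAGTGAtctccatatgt
Tfrc site 4: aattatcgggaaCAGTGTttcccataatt

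The pattern occurred in the 5′ UTR of 6 of 20883 genes (0.0287%) and in the 3′ UTR of 11 of 21005 genes (0.0524%). Among tested genes, 5 of 11078 held it in a 5′ UTR (0.0451%), namely Fth1, Ftl1, Slc40a1, Alas2 and Ppp1r1b, and 8 of 11101 in a 3′ UTR (0.0721%), of which Tfrc is the only iron gene described here. No match was found in Slc11a2, Aco1, Ireb2, Ncoa4 or Fbxl5, which says only that these letters are not in the UTRs searched. Slc11a2 is known to have transcript forms with and without an IRE, and the gene counts do not separate them.

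Fth1 lies at chr19:9980598-9985098, Ftl1 at chr7:45457944-45459884, Tfrc at chr16:32608920-32632794, Slc40a1 at chr1:45908068-45926523 and Slc11a2 at chr15:100387898-100425072. Aco1 lies at chr4:40143081-40198338, Ireb2 at chr9:54863789-54912530, Ncoa4 at chr14:32159865-32179855 and Fbxl5 at chr5:43744615-43821638. Some of these transcripts share sequence with other genes, which matters because reads with several genomic matches had been discarded before counting. Of the 50-base windows of Ftl1, 78.9% also occurred in transcripts of 15 other genes, 8 of them pseudogenes, and the shares were 43.1% for Ncoa4 and 4.01% for Fth1, each with 1 pseudogene. The levels of Ftl1 and Ncoa4 may therefore be too low by an unknown factor. Slc11a2 shared 0.504% of its windows and the other 5 genes shared none.

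The libraries held 47308461 to 267463046 counted reads, and single iron genes had between 721 counts (Tfrc) and 1349969 counts (Ftl1), so the spread between replicates was the larger part of the error. The labels do not say that replicates were separate cultures, and p-values measure the spread between these samples. All 9 duct epithelium markers were present, and summed to 5868 to 13190 CPM of all reads (CPM, counts scaled to the size of the library). Of the 5 acinar markers, Cela1 reached 2.96 to 5.08 CPM and the others at most 0.083 CPM, and the summed endocrine, fibroblast and endothelial markers were each at most 0.814 CPM in every library. The 5 leukocyte markers summed to 15.4 to 30.03 CPM in N and 2.83 to 17.3 CPM in KP libraries, carried by Cd68 and Csf1r, while Adgre1 and Cd3e were at most 0.069 CPM. Because the libraries are bulk samples, fewer cells of a type and less RNA per cell cannot be told apart. The polysome libraries of both N lysates numbered 3 and the libraries of KP CR-31 replicate 1 stood apart from the rest in their ratios of polysome-associated to total mRNA (a 5th percentile over all genes of -1.10 and -1.19 on the log2 scale in the former and a 95th of 1.79 in the latter), and results that rest on them are given with and without them. No sequencing lane or run held both organoid types, so lane and organoid type cannot be told apart. Within each type, vehicle replicates 1 and 2 shared a lane or run with CR-31 replicate 1, and vehicle replicate 3 with CR-31 replicates 2 and 3.

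Ferritin mRNA was far more abundant than the other iron mRNAs in all 8 groups. In RPKM, read numbers scaled to transcript length and library size and the only scale here on which genes are compared with each other, Ftl1 in total mRNA averaged 7071 ± 306 (SD, n = 3) in N vehicle, 6137 ± 308 in N CR-31, 8051 ± 1466 in KP vehicle and 8539.98 ± 2818 in KP CR-31 organoids, and ranked from 2 to 4 among all entries. Fth1 in total mRNA averaged 2670.0 ± 516, 2261 ± 434, 2105 ± 310.2 and 2109.95 ± 147 RPKM in the same order. In polysome-associated mRNA the means were 3278 ± 347, 3482 ± 749, 5972 ± 919 and 4962 ± 953 RPKM for Ftl1, and 1289 ± 153, 1202 ± 61.2, 1106 ± 314 and 1171 ± 246 RPKM for Fth1.

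The other 7 genes had group means between 3.62 and 79.3 RPKM. Ncoa4 was the next in order, with group means of 32 to 79.3 RPKM, and Fbxl5 followed with 31.3 to 37.1 RPKM, so these neighbours overlapped. Aco1 (10.3 to 22.8 RPKM), Slc11a2 (9.93 to 16.1 RPKM), Ireb2 (5.28 to 15.4 RPKM), Slc40a1 (4.47 to 13.4 RPKM) and Tfrc (3.62 to 10.02 RPKM) came below, with ranges that overlap from each gene to the next. In the plot of the level of each gene by library, the ferritin panels reach 12627 CPM (Ftl1) and the 5 lowest genes at most 120.4 CPM (Aco1).

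**Figure D1:**
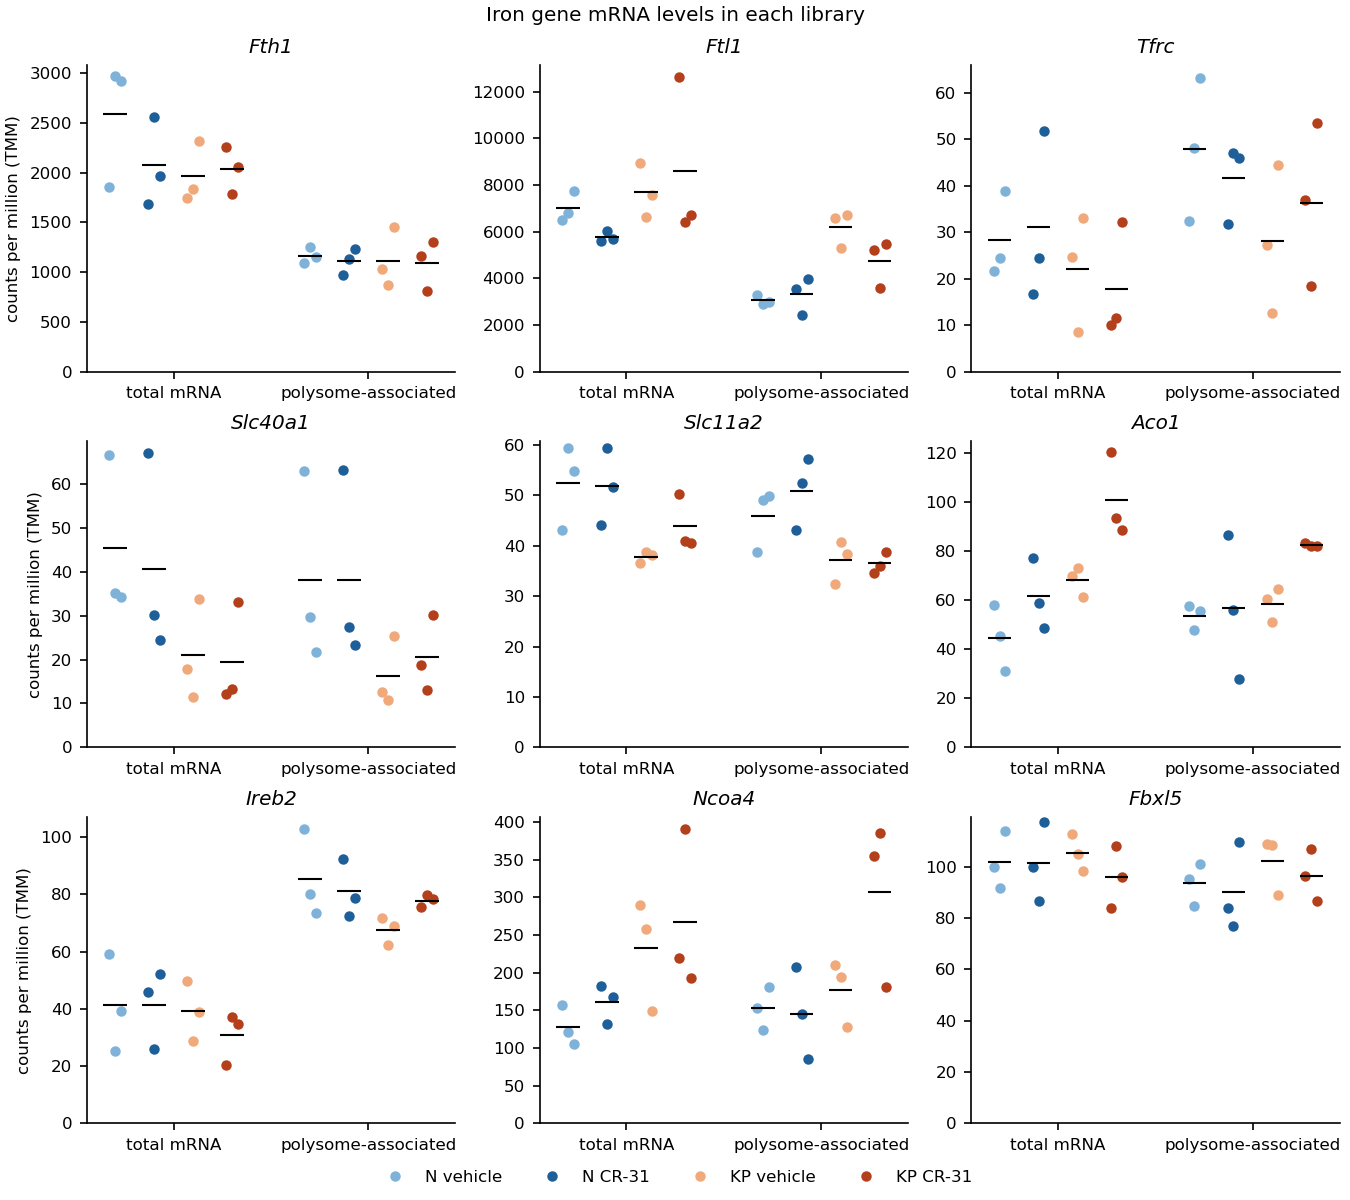
Level of each of the 9 iron mRNAs in every library, in CPM after TMM scaling (vertical axis, from 0), for total and polysome-associated mRNA; points are the 3 replicates of N vehicle, N CR-31, KP vehicle and KP CR-31 organoids from left to right and black lines are means. Fth1 is lower in polysome-associated than in total mRNA in every group, Ireb2 is higher, and Ftl1 in the polysome-associated mRNA of KP vehicle organoids (5312 to 6726 CPM) lies above all N vehicle values (2891 to 3293 CPM).

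The first comparison asks how far each mRNA was loaded on polysomes, measured as the log2 ratio of polysome-associated to total CPM of the same lysate. TMM scaling makes this ratio relative to the average mRNA. A shift shared by most mRNAs, such as a general loss from polysomes, cannot be seen in it. Relative to the average mRNA, both ferritin mRNAs were depleted from polysomes. In N vehicle organoids Fth1 had 1862, 2974 and 2926 CPM in total and 1094, 1255 and 1152 CPM in polysome-associated mRNA of replicates 1, 2 and 3. Ftl1 had 6490.2, 6784 and 7757 CPM in total and 3293, 2891 and 2987 CPM in polysome-associated mRNA. For each gene the highest polysome value lay below the lowest total value. The log2 ratio was -1.15 ± 0.16 (SE) for Fth1 (adjusted p = 0.011, edgeR quasi-likelihood test with the lysate as a block) and -1.22 ± 0.18 for Ftl1 (adjusted p = 0.011). These are the 21st and 16th lowest values among the 11438 genes. In this comparison 4 of the 9 genes passed the threshold of 0.25, against 14% of all genes tested.

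Fth1 kept a ratio below that of the average mRNA in every group. After CR-31, N organoids had 1689, 2563 and 1972 CPM of Fth1 in total and 972, 1129.5 and 1236 CPM in polysome-associated mRNA, a log2 ratio of -0.91 ± 0.16 (adjusted p = 0.031). KP vehicle organoids had 1745, 1833 and 2320.1 CPM in total and 1031, 867 and 1452 CPM in polysome-associated mRNA, a log2 ratio of -0.93 ± 0.16 (adjusted p = 0.042). In KP CR-31 organoids the values were 2258, 1784 and 2058 CPM in total and 1166, 807 and 1304 CPM in polysome-associated mRNA, with a log2 ratio of -0.93 ± 0.16 (adjusted p = 0.0058). Polysome values lay below total values in all 12 lysates, and the groups of total and polysome values did not overlap in any of the 4. Without KP vehicle replicate 2 the call in KP vehicle was lost (log2 ratio -0.81, adjusted p = 0.25), and the other left-out lysates did not end a call of Fth1. The counts called were 3 of 9 genes in N CR-31 (16.7% of all genes), 4 of 9 in KP vehicle (27.6%) and 4 of 9 in KP CR-31 organoids (19.5%).

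Ftl1 varied more between groups. Its log2 ratio was -0.86 ± 0.18 in N CR-31 (adjusted p = 0.042), -0.40 ± 0.18 in KP vehicle (adjusted p = 0.21) and -0.81 ± 0.18 in KP CR-31 organoids (adjusted p = 0.017). In the 3 KP vehicle lysates the ratios were -0.52, -0.40 and -0.26, all above the N vehicle ratios of -0.99, -1.25 and -1.42, so these groups did not overlap. In KP CR-31 organoids they were -1.25, -0.83 and -0.36, and those of N CR-31 organoids were -0.68, -1.33 and -0.56. The call in KP CR-31 was lost without replicate 1 (log2 ratio -0.60, adjusted p = 0.27) and the call in KP vehicle without any of its 3 replicates (-0.46 to -0.33) or with no filter on low counts (adjusted p = 0.26). With a KP vehicle lysate left out, at most 1 of the 9 genes was called in KP vehicle organoids, where calls over all genes fell to between 0.481% and 6.08%.

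Transferrin receptor and IRP2 mRNAs showed the opposite ratio. Ireb2 had 59.4, 25.2 and 39.4 CPM in total and 103, 80.1 and 73.4 CPM in polysome-associated mRNA of N vehicle organoids, with no overlap, and its log2 ratio was 1.09 ± 0.22 (adjusted p = 0.018). The ratio was 1.00 ± 0.22 in N CR-31 (adjusted p = 0.049), 0.73 ± 0.22 in KP vehicle (adjusted p = 0.091) and 1.37 ± 0.23 in KP CR-31 organoids (adjusted p = 0.0049). All 12 lysates had more Ireb2 in the polysome-associated library. The calls did not hold without N vehicle replicate 2 (0.82, adjusted p = 0.26), without N CR-31 replicate 2 (0.77, adjusted p = 0.25) or without any KP vehicle replicate (0.58 to 0.88).

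Tfrc had 21.7, 24.4 and 38.8 CPM in total and 32.5, 48 and 63.2 CPM in polysome-associated mRNA of N vehicle organoids, which overlapped, and a log2 ratio of 0.73 ± 0.25 (adjusted p = 0.13). In KP CR-31 organoids it had 9.97, 11.5 and 32.1 CPM in total and 36.9, 18.5 and 53.5 CPM in polysome-associated mRNA, a log2 ratio of 1.08 ± 0.25 (adjusted p = 0.020). These calls were lost without N vehicle replicate 2 (0.61, adjusted p = 0.52) and without KP CR-31 replicate 1 (0.68, adjusted p = 0.30). In N CR-31 the ratio was 0.54 ± 0.25 (adjusted p = 0.27) and in KP vehicle organoids 0.29 ± 0.25 (adjusted p = 0.50). N CR-31 replicate 3, at -0.21, was the exception among 12 lysates with more Tfrc on polysomes, and without it the N CR-31 ratio was called (0.91, adjusted p = 0.081), as it was with DESeq2 (0.51, adjusted p = 0.22).

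Slc40a1, whose 5′ UTR carries the same loop as Ftl1, had ratios nearer to 0. Its log2 ratio was -0.36 ± 0.17 in N vehicle (adjusted p = 0.32), -0.12 ± 0.17 in N CR-31 (adjusted p = 0.72), -0.44 ± 0.17 in KP vehicle (adjusted p = 0.16) and 0.14 ± 0.17 in KP CR-31 organoids (adjusted p = 0.73). The N vehicle ratio was called with DESeq2 (-0.38, adjusted p = 0.23) and with edgeR's own filter on low counts (-0.41, adjusted p = 0.248). The call in KP vehicle was lost without any of its replicates (-0.56 to -0.35). Ppp1r1b, a phosphatase inhibitor whose 5′ UTR also held the pattern and which was named after its values were seen, had mean log2 ratios of 0.38, 0.04, 0.56 (adjusted p = 0.23) and -0.02 in the same order. Epas1, the mRNA of the hypoxia factor HIF2α, whose 5′ UTR is known for an IRE but is not among the matches, had log2 ratios in the same order of -0.39 (adjusted p = 0.255), -0.47 (adjusted p = 0.16), -0.77 (adjusted p = 0.049) and -0.38 (adjusted p = 0.22) and was called in all groups but N vehicle. Alas2, the remaining tested gene with it, reached at most 0.233 CPM of all reads and its ratios were not read. Slc11a2, Aco1, Ncoa4 and Fbxl5 passed the threshold in none of the 4 groups. Their mean log2 ratios lay between -0.45 (Ncoa4, KP vehicle, SD 0.13) and 0.28 (Aco1, N vehicle, SD 0.45). In the plot of ratios by lysate, the means of Fth1 lie below the middle 90% of all genes in each group and those of Ireb2 above it, while the mean of Ftl1 in KP vehicle organoids lies inside it.

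**Figure D2:**
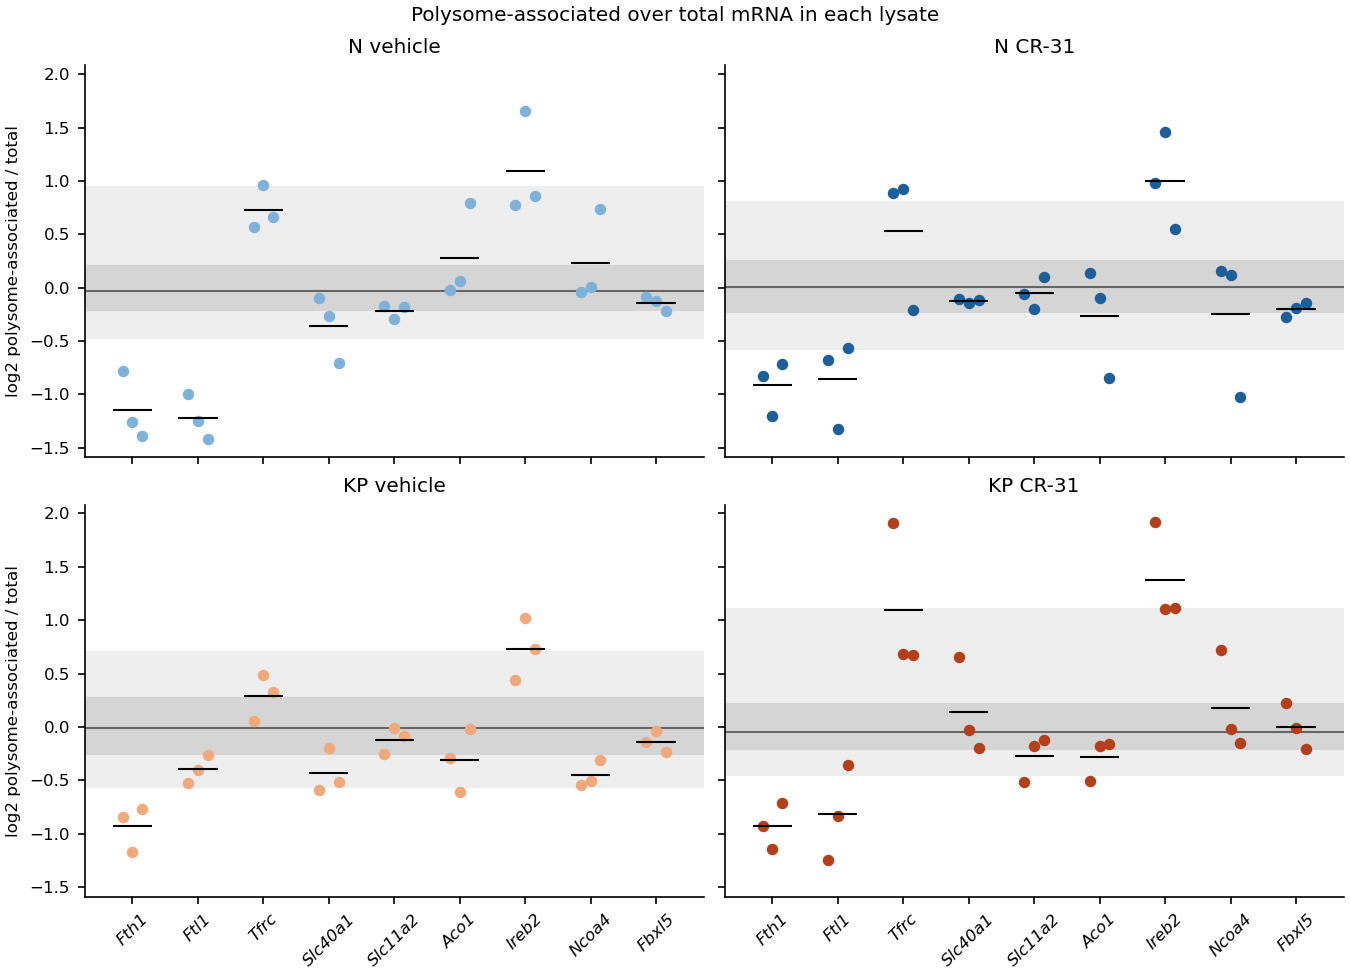
Log2 ratio of polysome-associated to total CPM (vertical axis) of each iron mRNA in each of the 3 lysates of the 4 groups; points are lysates, black lines are means, and the grey bands hold the middle 50% and 90% of the 11438 genes around their median. Fth1 averages -1.15, -0.91, -0.93 and -0.93 in N vehicle, N CR-31, KP vehicle and KP CR-31 organoids and stays below the wider band, whereas Ftl1 in KP vehicle organoids averages -0.40.

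An mRNA with a short coding sequence has room for fewer ribosomes, so ferritin was also set beside genes of like coding length. Fth1 and Ftl1 have coding sequences of 546 and 549 bases, against a median of 1395 bases over tested genes. Among the 1404 tested genes with a coding sequence under 600 bases, the median log2 ratio in N vehicle organoids was -0.21, and 4 genes lay below Fth1 (0.285%) and 3 below Ftl1 (0.214%). In KP vehicle organoids the median of these short genes was 0.10, with 7 genes below Fth1 (0.499%) and 82 below Ftl1 (5.84%). The medians were 0.00 in N CR-31, with 20 and 22 genes below Fth1 and Ftl1, and -0.05 in KP CR-31 organoids, with 10 and 16 genes. Apart from Ftl1 in KP vehicle organoids, fewer than 2% of genes of this length had a lower ratio than either ferritin mRNA. Tfrc (2289 coding bases) and Ireb2 (2889) are longer than the median gene. In N vehicle organoids genes with long coding sequences had higher ratios in general, with a median of 0.06 from 1500 to under 2500 bases and of 0.20 from 2500 to under 4000 bases, whereas in KP vehicle organoids these medians were -0.05 and -0.09, below that of short genes. Ireb2 lay below the 95th percentile of genes with 2500 to under 4000 coding bases in each group (1.29 in N vehicle, 1.04 in N CR-31, 0.81 in KP vehicle and 1.43 in KP CR-31 organoids).

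**Figure D3:**
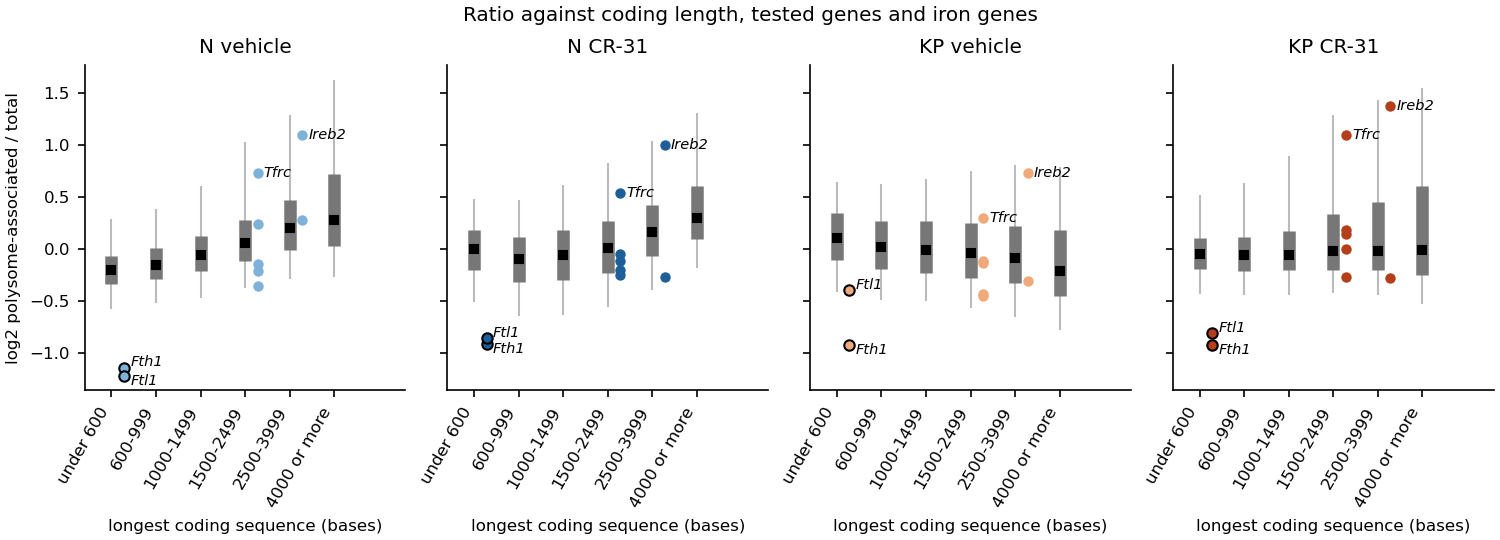
Log2 ratio of polysome-associated to total mRNA (vertical axis) against the longest coding sequence of a gene in bases (horizontal axis, 6 classes); black squares are medians of the tested genes, thick bars the middle 50%, thin lines the middle 90%, and coloured points the group means of the iron genes, with ferritin outlined. In N vehicle organoids Fth1 (-1.15) and Ftl1 (-1.22) lie below the class median of -0.21.

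The next comparison asks whether iron mRNAs differ between tumour (KP) and normal (N) organoids. With vehicle, polysome-associated Ftl1 was higher in KP organoids by 1.02 ± 0.23 on the log2 scale, or 2.03-fold (adjusted p = 0.015), while Fth1 was not called. The 3 KP values of Ftl1, 6585, 5312 and 6726 CPM, lay above the N values of 3293, 2891 and 2987 CPM. This call held with each of the 6 vehicle lysates left out in turn (0.96 to 1.12). In total mRNA Ftl1 had 8930.2, 6612 and 7587 CPM in KP against 6490.2, 6784 and 7757 CPM in N organoids, which overlapped (log2 fold change 0.14 ± 0.24, adjusted p = 0.78). Fth1 differed by -0.06 ± 0.24 in polysome-associated (adjusted p = 0.88) and -0.40 ± 0.23 in total mRNA (adjusted p = 0.31), with overlapping values in both. Without N vehicle replicate 1 the total difference of Fth1 was called (-0.59, adjusted p = 0.11).

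Whether the ferritin mRNAs shifted onto polysomes was tested as translational efficiency, the difference between groups in the polysome-to-total ratio. For Ftl1 it was 0.82 ± 0.26 higher in KP than in N vehicle organoids, an unadjusted p of 0.0065 but an adjusted p of 0.44. The edgeR model called 0% of genes here, although 1281 genes had an unadjusted p under 0.05, and DESeq2 called 350 genes (3.12%), Ftl1 among them (0.87, adjusted p = 0.22). A regression of polysome-associated on total mRNA also called Ftl1 (0.93, adjusted p = 0.17, with 10.9% of all genes called), and so did edgeR without N vehicle replicate 3 (0.72, adjusted p = 0.20, 18.8% of all genes) or without both N lysates numbered 3 (0.75, adjusted p = 0.12, 34.8% of all genes). The call thus depended on the model and on a library that stood apart. For Fth1 the difference was 0.22 ± 0.23 (adjusted p = 0.69) and for Tfrc -0.44 ± 0.35 (adjusted p = 0.61). The regression with a replicate block called Ftl1 (1.00, adjusted p = 0.035) and Tfrc (-0.97, adjusted p = 0.035), with 54.1% of all genes. Its p-values for KP against N leave out the spread between replicates of a type. After CR-31 the difference for Ftl1 was 0.04 ± 0.26 (adjusted p = 0.98) in edgeR and 0.68 in the regression with a replicate block, which called it (adjusted p = 0.24) with 33.4% of all genes. There edgeR again called 0% of genes, with 526 genes at an unadjusted p under 0.05.

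Of the 9 genes, 3 were called in polysome-associated mRNA of KP against N vehicle organoids (43.1% of all genes), and 4 in total mRNA (28.5%). Slc40a1 was lower in KP organoids in both fractions. In total mRNA it had 17.9, 11.6 and 33.9 CPM in KP and 66.5, 35.2 and 34.3 CPM in N vehicle organoids, a log2 fold change of -1.10 ± 0.52 (adjusted p = 0.22). In polysome-associated mRNA it had 12.6, 10.7 and 25.3 against 62.9, 29.6 and 21.7 CPM, a log2 fold change of -1.24 ± 0.51 (adjusted p = 0.12). The values did not overlap in total but did in polysome-associated mRNA, and N replicate 1 was the highest in each. Without N vehicle replicate 1 the changes were -0.72 (adjusted p = 0.44) and -0.67 (adjusted p = 0.38), and neither was called. The polysome call was also lost without KP vehicle replicate 1 (-1.08) or 2 (-1.01), and the total call without any vehicle lysate but KP replicate 3 (-1.27 to -0.72). Macrophages express Slc40a1 strongly, and the leukocyte markers were also lower in KP vehicle organoids. Their sum was 3.03 to 4.61 CPM in KP and 15.4 to 24.9 CPM in N total libraries, which did not overlap, and 3.7 to 17.3 against 16.6 to 22.9 CPM in polysome libraries, which did. Over the 24 libraries Ptprc reached 2.74 CPM with a median of 0, and Adgre1 reached 0.069 CPM with a median of 0, and the part of such cells in the Slc40a1 result was not tested.

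The IRP1 and ferritin receptor mRNAs were higher in total mRNA of KP vehicle organoids, and the DMT1 mRNA lower. Aco1 had 70.1, 73.4 and 61.2 CPM in KP and 58.1, 45.4 and 31 CPM in N (log2 fold change 0.61 ± 0.25, adjusted p = 0.15). Ncoa4 had 289.9, 258 and 149 CPM in KP and 157, 122 and 105 CPM in N (0.86 ± 0.31, adjusted p = 0.11). Slc11a2 had 36.6, 38.7 and 38.3 CPM in KP and 43.1, 59.4 and 54.8 CPM in N (-0.47 ± 0.18, adjusted p = 0.13). Aco1 and Slc11a2 did not overlap between the types, and Ncoa4 did. All 3 calls were lost without N vehicle replicate 3 (Aco1 0.40, Ncoa4 0.74, Slc11a2 -0.44) or KP vehicle replicate 1 (0.59, 0.67 and -0.45), and that of Aco1 also without KP vehicle replicate 2 (0.55) or N vehicle replicate 2 (0.61), that of Ncoa4 without KP vehicle replicate 2 (0.78) and that of Slc11a2 without N vehicle replicate 2 (-0.37). With both N lysates numbered 3 left out, 0 of the 9 genes were called in total mRNA, against 19.3% of all genes.

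In polysome-associated mRNA the corresponding differences were 0.13 ± 0.31 for Aco1 (adjusted p = 0.82), 0.22 ± 0.36 for Ncoa4 (adjusted p = 0.72) and -0.30 ± 0.19 for Slc11a2 (adjusted p = 0.29). Ireb2 had 71.8, 62.3 and 68.8 CPM in polysome-associated mRNA of KP and 103, 80.1 and 73.4 CPM of N vehicle organoids, which did not overlap (-0.34 ± 0.18, adjusted p = 0.22). That call was lost when any vehicle lysate but N replicate 3 was left out (-0.40 to -0.20) and with no filter on low counts (-0.32, adjusted p = 0.32). In total mRNA Ireb2 differed by -0.07 ± 0.36 (adjusted p = 0.93). Tfrc differed by -0.77 ± 0.45 in polysome-associated (adjusted p = 0.26) and -0.36 ± 0.57 in total mRNA (adjusted p = 0.75), and its values overlapped in both. The polysome difference of Tfrc was called with upper-quartile scaling (-0.86, adjusted p = 0.23), with DESeq2 (-0.78, adjusted p = 0.22) and without KP vehicle replicate 3 (-1.27) or N vehicle replicate 1, and that of Slc11a2 with upper-quartile scaling (-0.40, adjusted p = 0.19) and without N vehicle replicate 1 (-0.43, adjusted p = 0.17). When replicate numbers entered as a block, a fit that called 68.8% of all genes in polysome-associated and 56.4% in total mRNA, Tfrc was called in both (-0.90, adjusted p = 0.00084, and -0.49, adjusted p = 0.22), Slc11a2 in polysome-associated (-0.30, adjusted p = 0.077) and Fth1 in total mRNA (-0.37, adjusted p = 0.095). That block takes the spread between replicates of a type out of the error. Its p-values for KP against N therefore do not measure that spread. Without the block, Fbxl5 showed differences of 0.13 ± 0.19 (adjusted p = 0.69) and 0.05 ± 0.17 (adjusted p = 0.89).

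After CR-31, 3 of the 9 genes differed between KP and N in polysome-associated mRNA (25% of all genes) and 4 in total mRNA (39.9%). Ftl1 was higher in KP by 0.52 ± 0.23 in polysome-associated (adjusted p = 0.20) and 0.57 ± 0.24 in total mRNA (adjusted p = 0.14). The total values were 12627, 6427 and 6724 CPM in KP and 5599, 6035 and 5695 CPM in N organoids, and without KP CR-31 replicate 1 the difference was 0.19 (adjusted p = 0.59). It was also lost without N CR-31 replicate 3 (0.56, adjusted p = 0.26). The polysome call of Ftl1 was lost without KP CR-31 replicate 1 (0.45), KP CR-31 replicate 3 (0.41) or N CR-31 replicate 2 (0.34), with upper-quartile scaling (0.47) and with no filter on low counts (0.54).

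Ncoa4 was higher by 1.08 ± 0.36 in polysome-associated (adjusted p = 0.098) and 0.74 ± 0.31 in total mRNA (adjusted p = 0.14) of KP CR-31 organoids, and Aco1 by 0.71 ± 0.25 in total mRNA (adjusted p = 0.084). Slc40a1 was lower by -1.06 ± 0.52 in total mRNA (adjusted p = 0.20) and Slc11a2 by -0.48 ± 0.19 in polysome-associated mRNA (adjusted p = 0.15). Slc40a1 in polysome-associated mRNA (-0.88 ± 0.51, adjusted p = 0.34) and Aco1 there (0.54 ± 0.31, adjusted p = 0.34) were not called, but the first was without both N lysates numbered 3 (-1.15, adjusted p = 0.19) and the second without N CR-31 replicate 1 (0.98, adjusted p = 0.061), and the replicate block, which called 58.2% of all genes, called both (-0.82, adjusted p = 0.0011, and 0.64, adjusted p = 0.082). Here too the p-values with the block leave out the spread between replicates of a type. Leaving out KP CR-31 replicate 1 ended 4 of the 5 calls made without the block (Ncoa4 in polysome-associated mRNA 0.96, Aco1 0.56, Slc40a1 -0.80, Slc11a2 -0.45). The total call of Ncoa4 was lost without KP CR-31 replicate 2 (0.36) or N CR-31 replicate 2 (0.62), that of Slc40a1 without KP CR-31 replicate 2 (-0.84) or N CR-31 replicate 1 (-0.49), and that of Slc11a2 without KP CR-31 replicate 2 (-0.47), N CR-31 replicate 2 (-0.46) or N CR-31 replicate 3 (-0.39). The comparison of KP with N is plotted for both treatments.

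**Figure D4:**
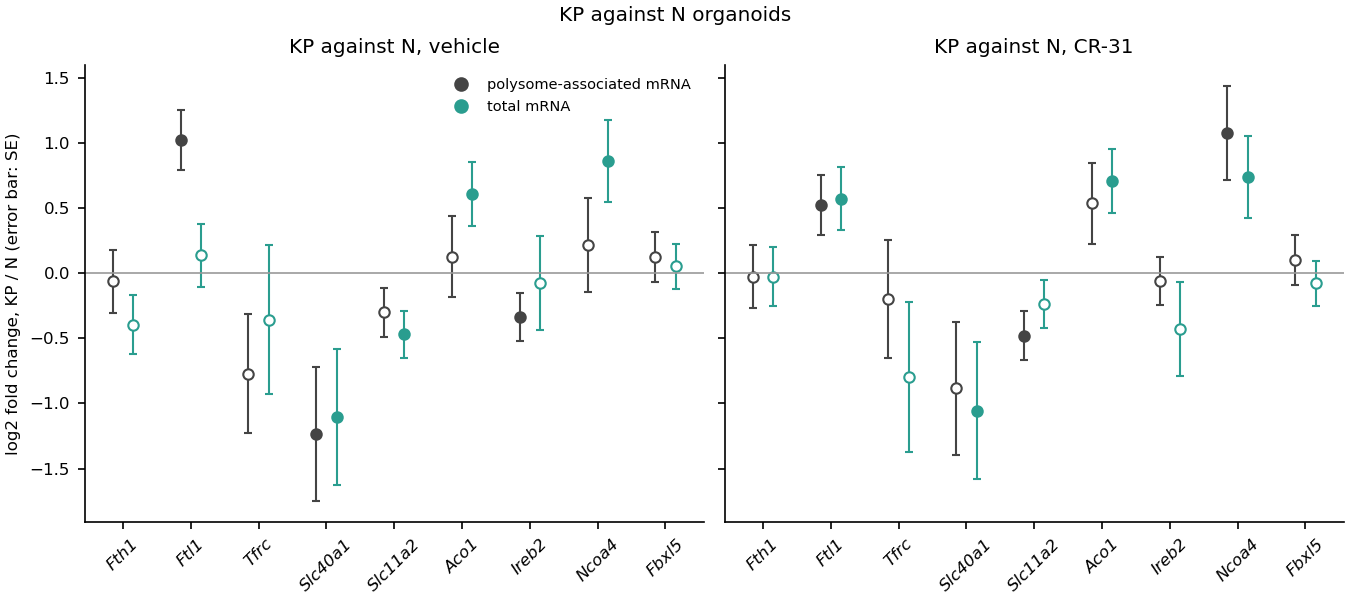
Log2 fold change of KP over N organoids (vertical axis, error bars SE) for each iron gene with vehicle (left) and CR-31 (right), in polysome-associated (dark grey) and total mRNA (green), from 3 lysates a group; filled points passed an adjusted p of 0.25. With vehicle, Ftl1 is at 1.02 in polysome-associated and 0.14 in total mRNA, whereas Slc40a1 is at -1.24 and -1.10.

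The last comparison asks what 1 h of CR-31 did to these mRNAs relative to the average mRNA. The study saw nascent protein synthesis fall in KP organoids with CR-31, and after TMM scaling such a general change cannot be seen here. In the edgeR models without a replicate block, no iron gene passed the threshold in either fraction, in translational efficiency or in the difference between KP and N organoids, and 0% of all genes did. With the block, calls were made in KP organoids. The genes at an unadjusted p under 0.05 numbered 406 in KP and 48 in N polysome-associated mRNA, 109 and 297 in total mRNA, and 639 and 332 in translational efficiency. DESeq2 called 0 and 0 genes in polysome-associated mRNA, 8 in KP and 13 in N total mRNA, and 0 in translational efficiency. In the difference between KP and N, 258 genes in polysome-associated mRNA, 15 in total mRNA and 1236 in translational efficiency had an unadjusted p under 0.05.

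Without the block, neither ferritin mRNA was called on polysomes after CR-31. In KP organoids polysome-associated Fth1 went from 1031, 867 and 1452 CPM to 1166, 807 and 1304 CPM (-0.03 ± 0.24, 95% interval -0.50 to 0.44). In N organoids it went from 1094, 1255 and 1152 CPM to 972, 1129.5 and 1236 CPM (-0.07 ± 0.24, 95% interval -0.54 to 0.40). Values with and without CR-31 overlapped in both types. Polysome-associated Ftl1 in KP organoids went from 6585, 5312 and 6726 CPM to 5225, 3600.0 and 5462 CPM, a log2 difference of -0.38 ± 0.23 (unadjusted p = 0.12, 95% interval -0.83 to 0.07). In N organoids the log2 difference for Ftl1 was 0.12 ± 0.23 (95% interval -0.33 to 0.57), and the difference between types was -0.50 ± 0.32. All of these had an adjusted p of 1.

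Tfrc on polysomes of KP organoids went from 27.2, 12.7 and 44.4 CPM to 36.9, 18.5 and 53.5 CPM (0.37 ± 0.45), and of N organoids from 32.5, 48 and 63.2 CPM to 31.7, 47.1 and 46 CPM (-0.20 ± 0.45). The log2 difference for Slc40a1 was 0.35 ± 0.51 in KP organoids, and Ncoa4 went from 211, 194 and 128 CPM to 355, 385 and 180.4 CPM (0.79 ± 0.36, unadjusted p = 0.048). Values overlapped for each of these genes, and each adjusted p was 1. In the total mRNA of KP organoids Aco1 went from 70.1, 73.4 and 61.2 CPM to 120.4, 93.5 and 88.6 CPM, which did not overlap (0.56 ± 0.25, unadjusted p = 0.041, adjusted p = 1), and in N organoids the log2 difference for Aco1 was 0.46 ± 0.25 (unadjusted p = 0.085, adjusted p = 1). Vehicle and CR-31 values also did not overlap in KP polysome-associated mRNA of Aco1 (51.0 to 64.5 against 82.2 to 83.3 CPM, 0.49 ± 0.31) and Ireb2 (62.3 to 71.8 against 75.5 to 79.7 CPM, 0.20 ± 0.18), in KP total mRNA of Slc11a2 (36.6 to 38.7 against 40.6 to 50.3 CPM, 0.21 ± 0.18) and in N total mRNA of Ftl1 (6490.2 to 7757 against 5599 to 6035 CPM, -0.28 ± 0.24). Each had an adjusted p of 1, in comparisons that called 0% of genes. Here and in the other comparisons, the share of all genes whose values did not overlap was not counted. Lack of overlap is therefore a description only.

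The replicate numbers paired vehicle with CR-31 lysates within each organoid type, and with the number as a block 4 of the 9 genes were called in polysome-associated mRNA of KP organoids, against 19.3% of all genes. They were Ftl1 (-0.40 ± 0.16, adjusted p = 0.23), Tfrc (0.42 ± 0.14, adjusted p = 0.19), Slc40a1 (0.37 ± 0.13, adjusted p = 0.20) and Ncoa4 (0.75 ± 0.27, adjusted p = 0.20). In N organoids the same model called 0% of genes. By replicate, Ftl1 in KP changed by -0.33, -0.56 and -0.30, Tfrc by 0.44, 0.54 and 0.27, Slc40a1 by 0.57, 0.28 and 0.25, and Ncoa4 by 0.75, 0.99 and 0.49. The block compares these same pairs, so the shared direction within each gene adds no support to its call. Aco1 (0.46, 0.69 and 0.35) and Ireb2 (0.07, 0.36 and 0.19), which were not called, also moved in 1 direction. Within sequencing lanes or runs, where vehicle replicate 3 met CR-31 replicates 2 and 3, the log2 differences were -0.60 for Ftl1 and 1.04 for Ncoa4, and where vehicle replicates 1 and 2 met CR-31 replicate 1 they were -0.18 and 0.81. They were -0.50 and 0.99 for Tfrc and -0.35 and 0.69 for Slc40a1 in these lanes, so the direction of those 2 genes did not hold within lanes. For Fth1 they were -0.50 and 0.30.

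Translational efficiency after CR-31 differed from vehicle in KP organoids by -0.42 ± 0.26 for Ftl1, 0.79 ± 0.35 for Tfrc, 0.58 ± 0.24 for Slc40a1 and 0.63 ± 0.34 for Ncoa4, each with an adjusted p of 0.52. Without KP CR-31 replicate 1 these differences were -0.20, 0.39, 0.33 and 0.36, in the same order. The regression on total mRNA with a replicate block called Ncoa4 (0.91, adjusted p = 0.249), with 9.68% of all genes. The plot of changes between same-numbered lysates shows that KP replicate 1 was far above the others for Tfrc (1.86), Ireb2 (1.47), Ncoa4 (1.26) and Slc40a1 (1.24). In N organoids the difference was 0.23 ± 0.23 for Fth1 (adjusted p = 0.76) and 0.36 ± 0.26 for Ftl1 (adjusted p = 0.73), and without both N lysates numbered 3 it was 0.012 and 0.12. The difference between types was -0.78 ± 0.36 for Ftl1, 0.98 ± 0.50 for Tfrc and 1.11 ± 0.48 for Ncoa4, each with an adjusted p of 0.42, and leaving out N CR-31 replicate 2 brought these 3 past the threshold (-1.01, 1.18 and 1.30) together with 16.6% of all genes. Without KP CR-31 replicate 1 they were -0.56, 0.58 and 0.84, and without both N lysates numbered 3 they were -0.60, 0.59 and 0.41, with none called.

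**Figure D5:**
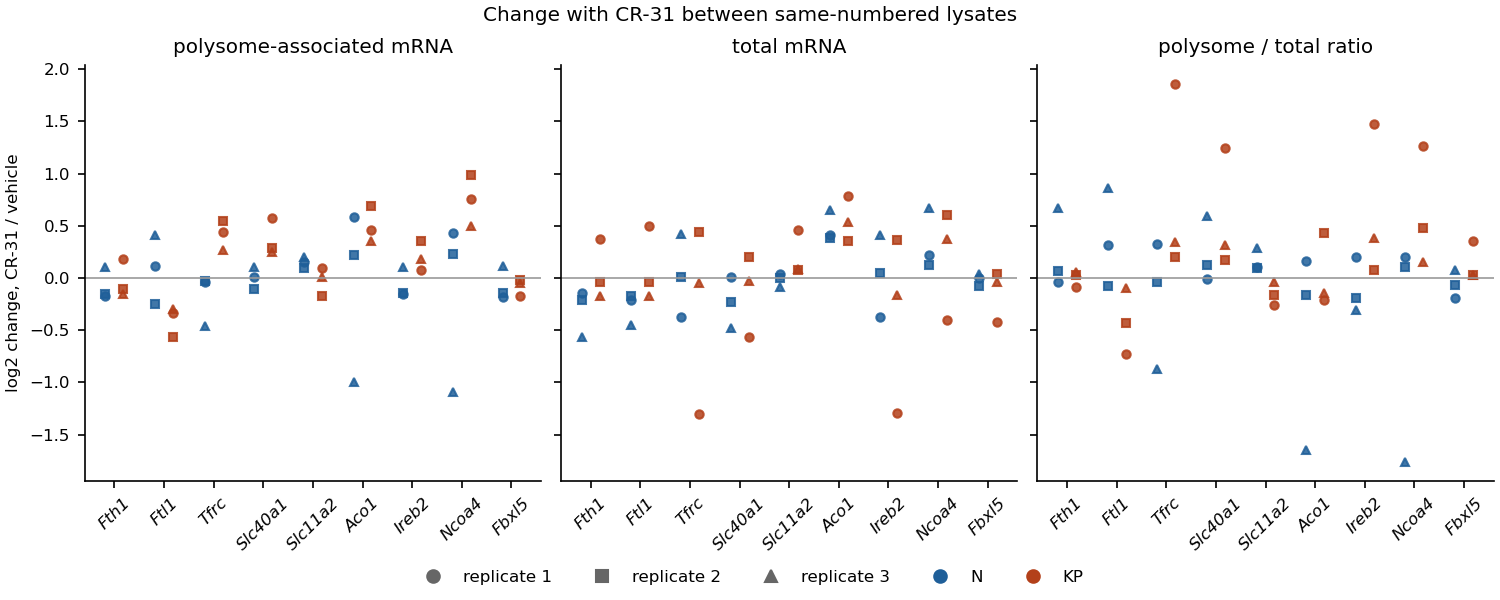
Log2 change with CR-31 between lysates of the same number (vertical axis) for each iron gene in polysome-associated mRNA, total mRNA and their ratio; circles, squares and triangles are replicates 1, 2 and 3, blue is N and red is KP. Polysome-associated Ftl1 is at -0.33, -0.56 and -0.30 in KP organoids, whereas in N organoids it is at 0.11, -0.25 and 0.41.

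Other genes of iron metabolism were read from lists by function, with KP compared with N vehicle organoids. Iron-sulfur cluster assembly, which builds the cofactor of Aco1 and of respiratory enzymes, had 17 of 21 genes tested. Of these, 12 were higher and 0 lower in polysome-associated mRNA and 2 were higher and 0 lower in total mRNA, with median log2 fold changes of 0.59 and 0.16 against -0.03 and -0.03 over all genes. Of all genes, 20.9% were higher and 22.2% lower in polysome-associated mRNA, and 13.1% and 15.4% in total mRNA. On polysomes the electron donor Fdx1 rose from 22.6 to 31.6 CPM in N to 40.1 to 62.6 CPM in KP organoids (1.02, adjusted p = 0.020), and the cluster carrier Glrx5 rose by 1.06 (adjusted p = 0.022). In total mRNA Fdx1 rose by 0.74 (adjusted p = 0.051) and Glrx5 by 0.43 (adjusted p = 0.18). After CR-31, 3 of the 17 genes were higher in polysome-associated mRNA and 6 in total mRNA, against 11.2% and 18.9% of all genes, and 0 were lower, against 13.8% and 21% of all genes.

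Of the 13 tested genes of heme synthesis, export and breakdown, out of 16, 5 were higher and 1 lower in polysome-associated mRNA and 5 higher and 0 lower in total mRNA, where 43.1% and 28.5% of all genes were called in either direction. Alad, an enzyme of porphyrin synthesis, rose by 0.89 in polysome-associated (adjusted p = 0.043) and 0.49 in total mRNA (adjusted p = 0.23), and the porphyrin transporter Abcb6 by 1.27 (adjusted p = 0.0085) and 1.02 (adjusted p = 0.012). Among 16 of 21 genes of iron uptake, export and transport, 4 were higher and 4 lower in each fraction, beside the same shares of all genes. The iron chaperone Pcbp1 rose by 0.81 (adjusted p = 0.025) and 0.66 (adjusted p = 0.097) and the mitochondrial iron importer Slc25a28 by 0.90 (adjusted p = 0.027) and 0.49 (adjusted p = 0.17). Tfr2, a second transferrin receptor, was lower, with log2 fold changes of -3.25 (adjusted p = 0.029) and -2.43 (adjusted p = 0.096) at levels of 0.44 to 3.90 CPM in N and 0.12 to 0.24 CPM in KP on polysomes. None of the 5 tested genes of ferritin and IRP turnover (of 6) and none of 3 other IRE mRNAs (of 5) was called in either fraction, among them Skp1a (0.21 and 0.08) and Cul1 (0.01 and 0.20), partners of Fbxl5, and Epas1 (0.04 and 0.38). In none of these lists was a gene called for CR-31 against vehicle, where 0% of all genes were called.

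As a description over the 24 libraries, which share lysates and fractions, the genes whose log2 CPM ran most like Fth1 were Mmachc (Pearson r = 0.90), Ybx1 (0.87) and Arpc1a (0.84). Ftl1 ranked 77 among all genes (0.68) and Ireb2 lay near the other end (-0.83). For Tfrc they were Zfp472 (0.92), Enpp4 (0.92) and Zfp599 (0.91), with Ireb2 at 0.54.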

How the data were processed

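The authors aligned read pairs with HISAT2, discarded reads with several matches and counted the rest over coding transcripts of RefSeq genes. Whole-number counts per gene and library were deposited without normalization, beside RPKM values that the authors scaled to transcript length and library size. RPKM was used here only to compare levels between genes. The labels and Methods name hg38, while the table holds mouse genes. Entries with several or repeated symbols (1176) and genes without a count in every library were left out of tests. Scaling used TMM, and tests used edgeR 4.0.16 in R 4.3.3 with Benjamini-Hochberg adjustment over 11438 genes and a threshold of 0.25, as in the study. Polysome-associated and total mRNA were each fitted with 4 group means. Ratios and translational efficiency came from 1 edgeR model of all 24 libraries with the lysate as a block. Single-lysate ratios used a prior count of 0.5. Scripts were tested on simulated data.

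The deposited counts summed to 47308461 to 267463046 reads per library. Deviations of same-numbered vehicle and CR-31 libraries from their group means correlated across genes at 0.46 to 0.80 in KP and 0.55 to 0.89 in N, over 0.1 in 6 of 6 pairs each, so replicate numbers from the labels pair lysates within a type. Between N and KP 2 of 6 pairs exceeded 0.1, for vehicle and for CR-31, and these were not paired. A block within a type leaves the spread between its cultures out of a comparison of KP with N. Alternatives were DESeq2 1.42.0, a regression on total mRNA with limma 3.58.1, other scalings and filters, a threshold of 0.05, left-out lysates, lanes and the replicate block. The genes, lists and tests were chosen with earlier results of these data known. Named pathway genes are up to 3 per list with the smallest adjusted p among those called with vehicle, and Skp1a, Cul1 and Epas1 were named outside that rule. A few items chosen in this way are not reported here. Sequences came from GENCODE M21 transcripts, and coding lengths covered 97.3% of tested genes. Figures used Python 3.11.15 and matplotlib 3.10.9.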

Additional observations from a re-analysis of the deposited data

Results flagged for a closer look

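For 2 genes every same-numbered pair of N lysates moved one way with CR-31 and every pair of KP lysates the other way. All 9 genes were read in polysome-associated mRNA, total mRNA and their ratio. The share of all genes that move in this way was not counted. Polysome-associated Tfrc moved by -0.04, -0.03 and -0.46 in N and by 0.44, 0.54 and 0.27 in KP organoids, and the difference of the CR-31 effects was 0.57 ± 0.64 (adjusted p = 1, edgeR). Without KP CR-31 replicate 1 the difference was 0.56, and without both N lysates numbered 3 it was 0.39. Within lanes or runs the change of Tfrc in KP organoids was -0.50 and 0.99, so its direction did not hold. The ratio of polysome-associated to total Slc11a2 moved by 0.11, 0.10 and 0.28 in N and by -0.26, -0.16 and -0.04 in KP organoids, and the difference was -0.32 ± 0.26 (adjusted p = 0.54, edgeR). That difference was -0.19 without KP CR-31 replicate 1 and -0.32 without both N lysates numbered 3. Neither difference passed the test of the difference itself, which called 0% of all genes in either measure.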

How the results depend on the processing

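Of 919 values of 73 results recomputed under other settings, 791 kept their direction and their side of the threshold, 63 lost the call, 35 gained it, 19 changed direction and 11 moved otherwise. At a threshold of 0.05, KP against N kept 1 called iron gene with vehicle and 0 with CR-31 in polysome-associated mRNA, and 0 in total mRNA with either treatment, and polysome-associated against total mRNA kept 1 in KP vehicle organoids. Of the 11438 genes, 1743, 688, 1028 (vehicle), 1207 (CR-31) and 132 passed it in these comparisons. With the replicate block, calls came to 5 (vehicle, 68.8% of all genes) and 6 (CR-31, 58.2%) for KP against N and 4 for CR-31 in KP organoids, all in polysome-associated mRNA, and total Ireb2 between KP and N with vehicle turned to 0.0057. Upper-quartile scaling gave 5 (43.7% of all genes) for KP against N with vehicle in polysome-associated mRNA, and leaving out both N lysates numbered 3 gave 0 (19.3% of all genes) in total mRNA and turned the CR-31 change of polysome-associated Ftl1 in N to -0.039. For translational efficiency with vehicle, DESeq2, the regression and omission of N replicate 3 each gave 1 call. The regression with the replicate block gave 5 with vehicle (54.1% of all genes), 4 with CR-31 (33.4%) and 1 for CR-31 in KP organoids (9.68%), and turned Fth1 to -0.10 for KP against N and to -0.045 for CR-31 in N.

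With each lysate left out in turn, iron genes called for KP against N ranged from 1 to 3 (vehicle) and 0 to 4 (CR-31) in polysome-associated mRNA, from 0 to 4 and 1 to 5 in total mRNA, and from 0 to 1 in translational efficiency with vehicle. They ranged from 0 to 3 in the difference of the CR-31 effect in translational efficiency, and for polysome-associated against total mRNA from 2 to 4 in N vehicle, N CR-31 and KP CR-31 and from 0 to 1 in KP vehicle organoids. For KP against N with vehicle, total mRNA of Fbxl5 ranged from -0.019 to 0.16, of Ireb2 from -0.33 to 0.28 and of Tfrc from -0.77 to 0.029, and polysome-associated Fth1 from -0.30 to 0.089. For CR-31 in polysome-associated mRNA of KP organoids, Fth1 ranged from -0.18 to 0.20, Slc40a1 from -0.029 to 0.82 and Tfrc from -0.020 to 0.86, and of N organoids Fth1 from -0.15 to 0.039, Ftl1 from -0.029 to 0.32 and Tfrc from -0.41 to 0.048. Translational efficiency of Ftl1 between KP and N with CR-31 ranged from -0.19 to 0.26, and the ratio of Slc40a1 in KP CR-31 organoids from -0.11 to 0.31. The causes of these shifts were not tested. Calls over all genes moved as well, from 28.5% to 48.3% (vehicle) and 9.47% to 27% (CR-31) for KP against N in polysome-associated mRNA, from 14.1% to 32.8% and 18.6% to 42.3% in total mRNA, from 0% to 18.8% in translational efficiency with vehicle and from 0% to 16.6% in the difference of the CR-31 effect. For polysome-associated against total mRNA they ranged from 1.75% to 22.1% in N vehicle, 4.27% to 7.99% in N CR-31, 0.481% to 6.08% in KP vehicle and 4.13% to 20.6% in KP CR-31 organoids. With 1 of 3 lysates left out, fewer samples remained in each fit. Depth limited Alas2 and Tfr2, with few counts, and not the 9 iron genes.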
